A study of Mus musculus with 12 samples.

Results

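The Notch genes described here were 3 ligands (Dll1, Dll3 and Jag1), 2 receptors (Notch1 and Notch2), the receptor-modifying enzyme Lfng and 4 genes switched on by the pathway (Hes1, Hes5, Hey1 and Nrarp). These 10 genes, of 35385 gene symbols, were chosen by name around a measured value, the level of Dll1, which had been seen to be lower with all 3 compounds of the study. The level of Dll1 against vehicle is therefore given as a description, with no test. All 10 genes passed the filter for testing, a transcript abundance of at least 1 TPM in no fewer than 3 libraries, as did 12009 symbols in all.

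Poly(A) RNA was sequenced from mouse oligodendrocyte progenitors (OPCs), the cells that give rise to myelin-forming oligodendrocytes, made here from pluripotent stem cells. TPM is the share of a library's transcripts, scaled for transcript length. After 1 h of attachment in a medium that permits differentiation, the cells spent 4 h with a quaternary ammonium compound or with the vehicle. The groups were cetylpyridinium chloride (CPC), C12-C14-alkyl(ethylbenzyl)dimethylammonium chloride (AEBDAC), methyltrioctylammonium chloride (MTOAC) and vehicle, which was dimethyl sulfoxide, with 3 libraries each. Each compound was given at its own IC75, the concentration that inhibits by 75%, so that concentrations differed between compounds; they are not given in the labels. Before plating, the cells of all groups had been grown with Noggin, NT3, cAMP and IGF-1. No strain, genotype or stem cell line is named, and the labels do not say that libraries came from separate cultures, so p-values reflect only how these libraries spread, which may be technical.

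Notch signalling passes between touching cells. Delta and Jagged ligands on 1 cell bind Notch receptors on its neighbour, the receptor is cleaved, and its intracellular part enters the nucleus, joins the DNA-binding protein RBPJ and switches on genes such as those of the Hes and Hey families. In the oligodendrocyte lineage Notch1 signalling is known to hold progenitors back from differentiation, and Hes5 is known as a repressor of myelin genes.

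Promoter sequence is shown for the Notch ligand that chose the set, Dll1, and for the 2 target genes with the largest differences, Hes5 and Nrarp. It is also shown for Lfng, the only other gene whose searched window held the letters RBPJ is known to bind. The windows are the 250 bases before the RefSeq transcript start on GRCm38.p6, 5′ to 3′ on the strand of the gene, and capitals mark TGGGAA, the RBPJ core, found on either strand. They lie at chr4:154960673-154960922 on the plus strand for Hes5, chr5:140607091-140607340 on the plus strand for Lfng, chr2:25180508-25180757 on the plus strand for Nrarp and chr17:15376933-15377182 on the minus strand for Dll1.
Hes5: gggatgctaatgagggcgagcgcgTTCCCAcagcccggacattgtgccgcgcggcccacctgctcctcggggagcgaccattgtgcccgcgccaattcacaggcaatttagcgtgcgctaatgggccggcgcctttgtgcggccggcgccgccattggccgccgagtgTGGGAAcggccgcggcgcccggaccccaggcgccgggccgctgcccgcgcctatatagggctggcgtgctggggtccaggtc
Lfng: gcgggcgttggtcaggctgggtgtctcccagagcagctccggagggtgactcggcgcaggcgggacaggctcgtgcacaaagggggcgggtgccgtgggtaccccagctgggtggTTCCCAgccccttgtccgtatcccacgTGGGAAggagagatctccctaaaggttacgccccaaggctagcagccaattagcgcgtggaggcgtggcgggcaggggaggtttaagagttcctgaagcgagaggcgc
Nrarp: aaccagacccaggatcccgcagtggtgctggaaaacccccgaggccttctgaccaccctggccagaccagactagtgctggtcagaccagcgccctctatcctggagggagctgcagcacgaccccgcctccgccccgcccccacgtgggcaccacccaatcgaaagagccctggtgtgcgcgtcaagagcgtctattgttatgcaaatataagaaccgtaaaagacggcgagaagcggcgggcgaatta
Dll1: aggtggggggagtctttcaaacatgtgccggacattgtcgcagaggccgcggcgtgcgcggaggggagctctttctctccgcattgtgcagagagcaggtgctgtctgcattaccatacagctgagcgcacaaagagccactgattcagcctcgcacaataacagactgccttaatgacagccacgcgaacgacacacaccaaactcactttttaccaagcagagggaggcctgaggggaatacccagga
Hes5 held the core at 82 to 77 bases before its start on its own strand and at 226 to 221 bases on the opposite strand, both times within the longer form GTGGGAA. Lfng held it at 108 to 103 bases on its own strand, there as GTGGGAA, and at 135 to 130 bases on the opposite strand, there in the short form. Of the 10 genes 8 had a RefSeq window, and Hes1 and Hey1, which had none, were not searched. The windows of the other 6 genes searched, the Nrarp window and both Dll1 windows among them, had no match. The transcript start of the Notch1 window lay 12841 bases from the GENCODE start of that gene. Over all 32851 windows of the same length, 21.6% held TGGGAA and 2.77% held it at least 2 times, while 5.42% held GTGGGAA, a form that contains the shorter motif. A match is only a match of letters and does not show binding, and a window without one shows nothing about RBPJ there.

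The cells carried RNA of the OPC class: each of 8 OPC markers was present in vehicle, with Sox10 lowest at 19.64 TPM in its lowest library. Deposited values summed to 772637 to 797758 TPM per library, and since TPM keep no depth, the depth of the libraries is unknown. No pair of libraries was identical. Vehicle library 1 stood apart, with 86422 TPM in mitochondrially encoded genes against 147539 to 183001 TPM in the other 11, so calls that it decides are given below. OPC markers summed to 1577 to 1728 TPM with CPC, 1458 to 1726 TPM with AEBDAC and 1248 to 1357 TPM with MTOAC, against 1967 to 2347 TPM in vehicle. Olig1 was the largest part, at 531 TPM on average with MTOAC against 1194 TPM in vehicle. With MTOAC and with AEBDAC the same 4 of the 8 (Olig1, Pdgfra, Gpr17 and Nkx2-2) lay below all vehicle libraries. With CPC 3 did (Olig1, Pdgfra and Gpr17). Of all tested genes, 26.4%, 24.9% and 20.6% lay outside the vehicle range in either direction with MTOAC, AEBDAC and CPC. The other markers overlapped vehicle, among them Ptprz1, at 332 TPM on average with MTOAC against 337 TPM. In bulk RNA, fewer cells of a type and less RNA per cell cannot be told apart. The 7 oligodendrocyte markers summed to 37.3 to 51.4 TPM with CPC, 36.3 to 51.6 TPM with AEBDAC and 35.4 to 47.1 TPM with MTOAC, against 52.7 to 74.5 TPM in vehicle, nearly all of it Cnp, with Mog at 0 throughout. The 6 neuronal markers summed to 324 to 389 TPM with CPC, 307 to 345 TPM with AEBDAC and 258 to 341 TPM with MTOAC, against 424 to 470 TPM in vehicle, mostly Map2, with Slc17a6 at 0 throughout. The sums of 6 astrocyte markers overlapped between vehicle and each compound, the 5 microglial markers summed to at most 0.62 TPM, and the 4 pluripotency markers summed to 4.18 to 13.8 TPM over all libraries, with Zfp42 at 0 throughout. The 6 endothelial and mural markers summed to 36.8 to 75.4 TPM with CPC, 41.6 to 91.8 TPM with AEBDAC and 47.2 to 83.1 TPM with MTOAC, against 33.5 to 51.1 TPM in vehicle. Nearly all of this was Acta2, at 52.8, 62.0 and 60.5 TPM on average with CPC, AEBDAC and MTOAC, against 39.6 TPM in vehicle, while the other 5 stood at most at 0.62 TPM. Pou5f1 was at 9.64 TPM in MTOAC library 3 and 7.84 TPM in vehicle library 1, and at 0 in the other 10. The part of cell makeup in the results below was not tested.

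In vehicle Hes5 was the most abundant of the 10 genes, at 148 ± 31.7 TPM (SD, n = 3), and its libraries lay above those of Dll3, the next, at 66.7 ± 25.3 TPM. Dll1, Notch1, Nrarp, Lfng and Hes1 followed at 61.0, 47.6, 35.3, 32.0 and 26.0 TPM, each overlapping its neighbour in this order. Hes1 lay above the lowest group of genes, Hey1, Jag1 and Notch2, at 16.9, 13.2 and 12.2 TPM, whose ranges overlapped in turn. With MTOAC the order differed. Notch1 came first at 59.6 ± 4.19 TPM, clear of Dll3 at 39.4 and Hes5 at 38.0 TPM, while Jag1, at 26.8 TPM, averaged above Dll1, at 23.2 TPM, with overlapping libraries. Nrarp stood last at 5.15 ± 1.39 TPM, below all libraries of Hey1. With CPC and AEBDAC Hes5 was still first, at 82.7 ± 28.8 and 63.3 ± 36.8 TPM, but overlapped the next gene. TPM are scaled for transcript length, so these levels can be compared between genes.

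**Figure D1:**
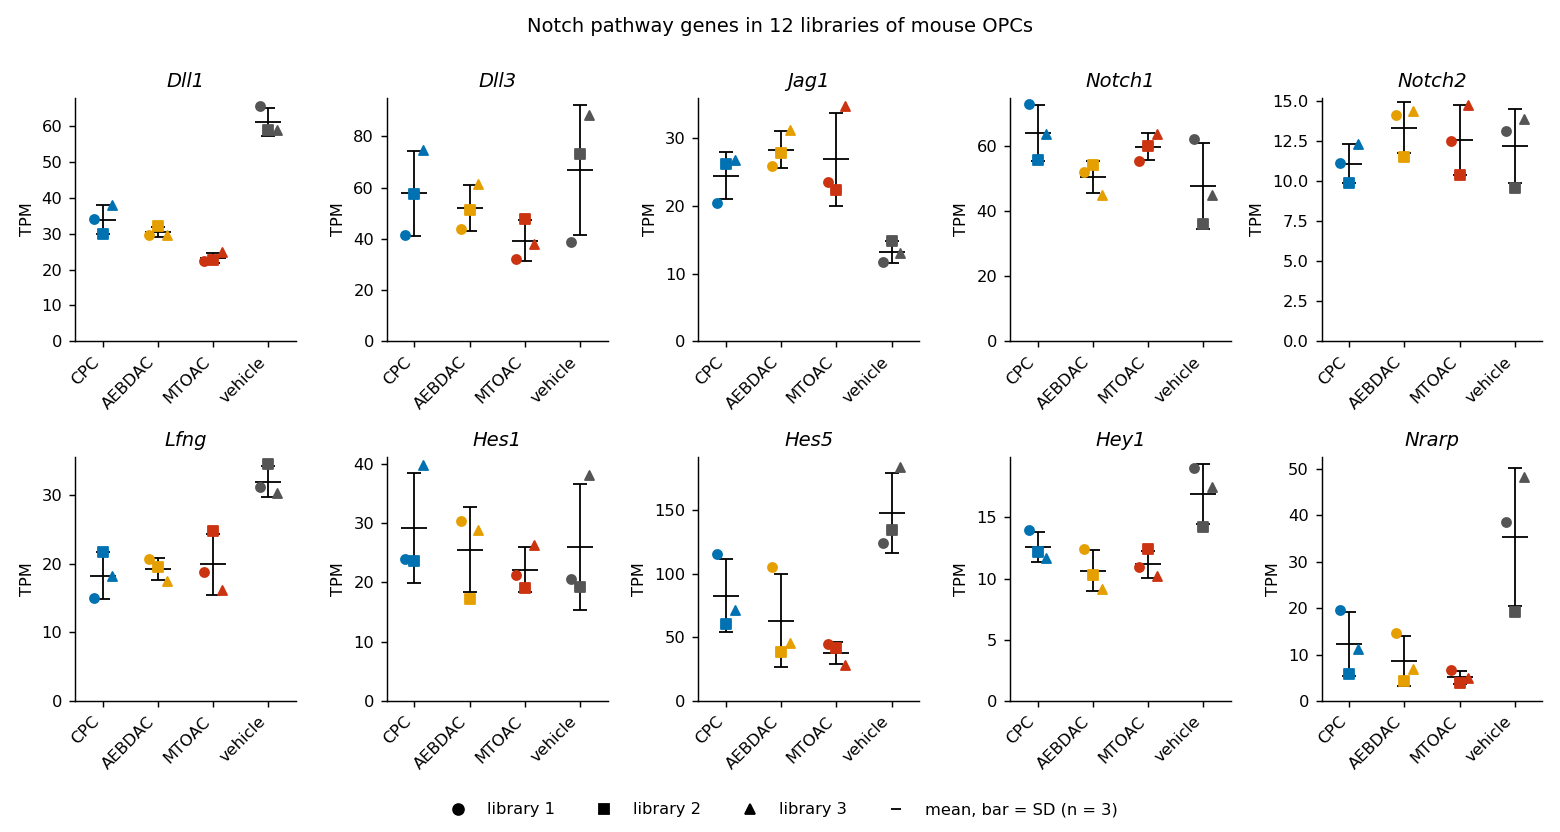
Level of each of the 10 Notch genes in TPM (vertical axes, 1 panel a gene) with CPC, AEBDAC, MTOAC and vehicle; circles, squares and triangles are libraries 1, 2 and 3, bars the mean ± SD of n = 3. Dll1, Lfng, Hes5, Hey1 and Nrarp stand lower and Jag1 higher with each compound, with 1 Nrarp library of CPC inside the range of vehicle.

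Among the ligands, Dll1 was lower and Jag1 higher with the compounds, while Dll3 overlapped vehicle and did not pass the test with any compound. Dll1 is a Delta ligand that activates Notch on neighbouring cells. Its gene lies at chr17:15367354-15376872 on the minus strand (coordinates here and below are of GENCODE M21 on GRCm38). Dll1 stood at 33.9, 29.8 and 38.0 TPM in libraries 1 to 3 with CPC, at 29.7, 32.0 and 29.7 TPM with AEBDAC and at 22.3, 22.6 and 24.8 TPM with MTOAC, against 65.6, 58.8 and 58.7 TPM in vehicle. No compound library reached the lowest vehicle library, and the MTOAC libraries lay below all others. On the log2(TPM + 1) scale, used for all differences here, those of Dll1 from vehicle were -0.83 with CPC, -0.98 with AEBDAC and -1.36 with MTOAC. As multiples of TPM + 1, the form used here and below, they were 0.561, 0.507 and 0.39 times vehicle. These are the values that chose the set, and they carry no test. Over 13 alternative fits per compound they lay between -0.92 and -0.68 with CPC, -1.01 and -0.85 with AEBDAC, and -1.40 and -1.16 with MTOAC. Those fits reuse the libraries that chose the set, so they cannot test the fall of Dll1.

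Jag1 encodes a Jagged ligand, also an activator of Notch on neighbouring cells, from chr2:137081456-137116644 on the minus strand. Jag1 stood at 20.4, 26.2 and 26.7 TPM with CPC, at 25.8, 27.7 and 31.1 TPM with AEBDAC and at 23.4, 22.2 and 34.7 TPM with MTOAC, against 11.7, 14.9 and 13.0 TPM in vehicle. All 9 compound libraries lay above all 3 vehicle libraries. Jag1 rose by 1.05 ± 0.18 log2 (SE) with AEBDAC, 2.06-fold, with a limma adjusted p of 0.0324, and by 0.95 ± 0.18 with MTOAC, 1.93-fold, with an adjusted p of 0.0173. With CPC the difference was 0.84 ± 0.18, with an adjusted p of 0.124, which became 0.0422 when the library number entered the fit as a block. The AEBDAC call was lost without vehicle library 1, 2 or 3 (adjusted p = 0.095, 0.0793 and 0.0754, limma) and without AEBDAC library 2 or 3 (0.163 and 0.133). The MTOAC call was lost without vehicle library 1 (adjusted p = 0.0513, limma), and both calls were lost when only the 2 groups compared entered the fit (0.142 with AEBDAC, 0.113 with MTOAC). With no filter on low values the AEBDAC value was 0.0632.

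Dll3, from chr7:28293553-28302238 on the minus strand, encodes a divergent Delta protein known to act mainly inside the cell that makes it, where it hinders Notch. Its libraries spread widely: 41.5, 57.4 and 74.7 TPM with CPC, 43.8, 51.2 and 61.5 TPM with AEBDAC, 32.2, 47.9 and 38.0 TPM with MTOAC, against 38.7, 73.2 and 88.2 TPM in vehicle. Every compound overlapped vehicle, and in all 4 groups library 1 was the lowest. Differences from vehicle were -0.16, -0.28 and -0.68 ± 0.30 log2 with CPC, AEBDAC and MTOAC, with limma adjusted p of 0.853, 0.644 and 0.184.

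Because the levels of Dll1 and Jag1 moved apart, their ratio within each library was taken, a measure chosen after these values had been seen and given with no test. It was 1.66, 1.14 and 1.42 with CPC, 1.15, 1.15 and 0.953 with AEBDAC and 0.951, 1.01 and 0.715 with MTOAC, against 5.63, 3.96 and 4.52 in vehicle. The vehicle cells thus held several times more Dll1 than Jag1 RNA, while Dll1 exceeded Jag1 by less in the 3 CPC libraries, and Jag1 was the higher in 1 AEBDAC and 2 MTOAC libraries. A ratio inside a library does not change with the scaling of that library. The 3 ligands together summed to 116 ± 21.9 TPM with CPC, 111 ± 11.5 TPM with AEBDAC and 89.4 ± 10.3 TPM with MTOAC, against 141 ± 22.6 TPM in vehicle (SD, n = 3).

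**Figure D2:**
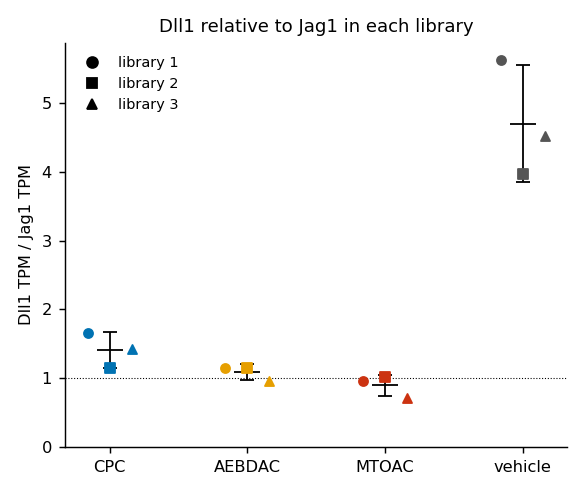
Ratio of Dll1 to Jag1 TPM within each library (vertical axis) with CPC, AEBDAC, MTOAC and vehicle; symbols are libraries 1 to 3, bars the mean ± SD of n = 3. The compound means are 1.41, 1.09 and 0.893, against 4.7 in vehicle, and no ranges overlap with vehicle.

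The receptors did not pass the test with any compound. Notch1, from chr2:26457903-26516663 on the minus strand, is the receptor best known for restraining OPC differentiation. It stood at 72.7, 55.6 and 63.6 TPM with CPC, at 51.9, 54.2 and 44.7 TPM with AEBDAC and at 55.3, 59.9 and 63.7 TPM with MTOAC, against 62.1, 36.0 and 44.8 TPM in vehicle. The wide vehicle range, with library 1 the highest, overlapped every compound, and differences of 0.44, 0.11 and 0.35 log2 had limma adjusted p of 0.325, 0.792 and 0.263. Notch2, another receptor of the family, from chr3:98013527-98150361 on the plus strand, averaged 11.1 ± 1.22 TPM with CPC, 13.3 ± 1.61 TPM with AEBDAC and 12.6 ± 2.19 TPM with MTOAC, against 12.2 ± 2.31 TPM in vehicle (SD, n = 3). Its differences from vehicle lay between -0.12 and 0.13 log2. The median gene had an unadjusted 95% interval of 0.55 log2 to either side. Calls were adjusted over all tested genes, so even larger changes could be missed for a typical gene. Jag1, for example, differed by 0.84 log2 with CPC and did not pass (limma adjusted p = 0.124).

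Lfng encodes Lunatic fringe, an enzyme of the Golgi that extends a sugar on Notch receptors and is known to favour their response to Delta over Jagged ligands. Its gene lies at chr5:140607320-140615545 on the plus strand. Lfng stood at 15.0, 21.7 and 18.3 TPM with CPC, at 20.7, 19.5 and 17.5 TPM with AEBDAC and at 18.9, 24.8 and 16.2 TPM with MTOAC, against 31.2, 34.6 and 30.3 TPM in vehicle. All 9 compound libraries lay below vehicle. With MTOAC Lfng fell by 0.68 on the log2 scale (SE 0.18), with a limma adjusted p of 0.0462. This call held in 2 of 13 alternatives. It was lost without any 1 of the 6 libraries (adjusted p between 0.0506 and 0.113, limma), with only the 2 groups in the fit (0.151) and with quantile normalization, where the difference was -0.45 (adjusted p = 0.29). Differences of similar size, -0.79 ± 0.18 with CPC and -0.71 ± 0.18 with AEBDAC, did not pass, with limma adjusted p of 0.127 and 0.0744. Both passed with the library number as a block (0.0444 and 0.0223), though with AEBDAC the numbers did not meet the rule for pairing.

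Of the target genes, Hes5 and Nrarp fell with MTOAC, and Hes1 overlapped vehicle with each compound. Hes5 encodes a repressor that the Notch intracellular part switches on directly. Its gene, at chr4:154960923-154962371 on the plus strand, is the one whose promoter above holds 2 copies of GTGGGAA. Hes5 stood at 115, 60.9 and 71.9 TPM with CPC, at 106, 39.0 and 45.4 TPM with AEBDAC and at 44.5, 41.4 and 28.0 TPM with MTOAC, against 125, 135 and 184 TPM in vehicle. No compound library reached the lowest of vehicle, though library 1 of CPC and of AEBDAC came near it. Hes5 fell by 1.94 on the log2 scale (SE 0.36) with MTOAC, to 0.261 times vehicle, with a limma adjusted p of 0.0151 and between 0.00725 and 0.0485 over 13 alternatives. With AEBDAC the difference was -1.33 ± 0.36 (limma adjusted p = 0.0848). Without AEBDAC library 1 it was -1.77 and passed (limma adjusted p = 0.0336). With CPC it was -0.86 ± 0.36 (limma adjusted p = 0.331).

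Nrarp is a small ankyrin-repeat protein induced by Notch that feeds back to dampen it, encoded at chr2:25180758-25183339 on the plus strand. Nrarp stood at 19.7, 5.92 and 11.2 TPM with CPC, at 14.6, 4.39 and 6.79 TPM with AEBDAC and at 6.64, 3.88 and 4.92 TPM with MTOAC, against 38.4, 19.1 and 48.3 TPM in vehicle. Library 2 was the lowest in all 4 groups, and CPC library 1 lay just above vehicle library 2, the only overlap with vehicle. With MTOAC Nrarp fell by 2.49 on the log2 scale (SE 0.48), to 0.178 times vehicle in TPM + 1, with a limma adjusted p of 0.0165. That call was lost without vehicle library 1 (0.0513), vehicle library 3 (0.0531) or MTOAC library 2 (0.0654), as limma adjusted p, and with only the 2 groups in the fit (0.0629). With AEBDAC the difference was -1.96 ± 0.48 (limma adjusted p = 0.0698) and with CPC -1.49 ± 0.48 (0.233). Both passed with the library number as a block (0.0415 with CPC), though with AEBDAC the numbers did not meet the rule for pairing.

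Hey1, a hairy-related repressor downstream of Notch, lies at chr3:8663359-8667256 on the minus strand. Hey1 stood at 13.9, 12.2 and 11.7 TPM with CPC, at 12.5, 10.3 and 9.16 TPM with AEBDAC and at 10.9, 12.4 and 10.2 TPM with MTOAC, against 19.1, 14.2 and 17.5 TPM in vehicle. All compound libraries lay below vehicle, but differences of -0.39, -0.62 and -0.55 log2 did not pass, with limma adjusted p of 0.34, 0.0826 and 0.0686. Hes1, at chr16:30064384-30067796 on the plus strand, is the relative of Hes5 that many signals besides Notch also induce. Hes1 stood at 24.0, 23.6 and 39.9 TPM with CPC, at 30.4, 17.3 and 28.8 TPM with AEBDAC and at 21.2, 19.0 and 26.3 TPM with MTOAC, against 20.6, 19.2 and 38.2 TPM in vehicle. Its ranges overlapped, with differences of 0.19, 0.00 and -0.16 log2 whose sign changed under some alternatives, and limma adjusted p of 0.831, 0.999 and 0.788. The 4 targets together summed to 137 ± 35.2 TPM with CPC, 108 ± 48.6 TPM with AEBDAC and 76.5 ± 6.92 TPM with MTOAC, against 226 ± 54.2 TPM in vehicle (SD, n = 3), and Hes5 made up most of the vehicle sum.

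Counted over the 9 genes other than Dll1, 0 passed with CPC, where 0.0666% of all 12009 tested genes did. With AEBDAC 1 passed, Jag1, where 1.27% of all genes did. With MTOAC 4 passed, Jag1 higher and Lfng, Hes5 and Nrarp lower, where 6.54% of all genes did. At an unadjusted p under 0.05 the CPC count was 6 of 9, against 1634 of all 12009 genes. With the library number as a block, the CPC count past the threshold became 3, against 184 of all tested genes. Without vehicle library 1, the one that stands apart, the MTOAC count was 1, Hes5, and the AEBDAC count 0. Genes whose 3 compound libraries all lay outside the vehicle range numbered 5 of 10 with CPC, where 20.6% of all tested genes did so, and 6 of 10 with AEBDAC and with MTOAC, where 24.9% and 26.4% of all genes did. Dll1, which chose the set, is in each of these 3 counts. The 3 comparisons share their vehicle libraries and are not independent of each other. The median tested gene itself differed from vehicle by -0.17 with CPC, -0.16 with AEBDAC and -0.22 with MTOAC. Among the 9 genes other than Dll1 the middle value was -0.16 with CPC and -0.28 with AEBDAC, both of Dll3, and -0.55 with MTOAC, of Hey1. Relative to the median tested gene, the MTOAC differences were 1.17 for Jag1, -0.46 for Lfng, -1.72 for Hes5, -2.27 for Nrarp and -0.33 for Hey1.

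**Figure D3:**
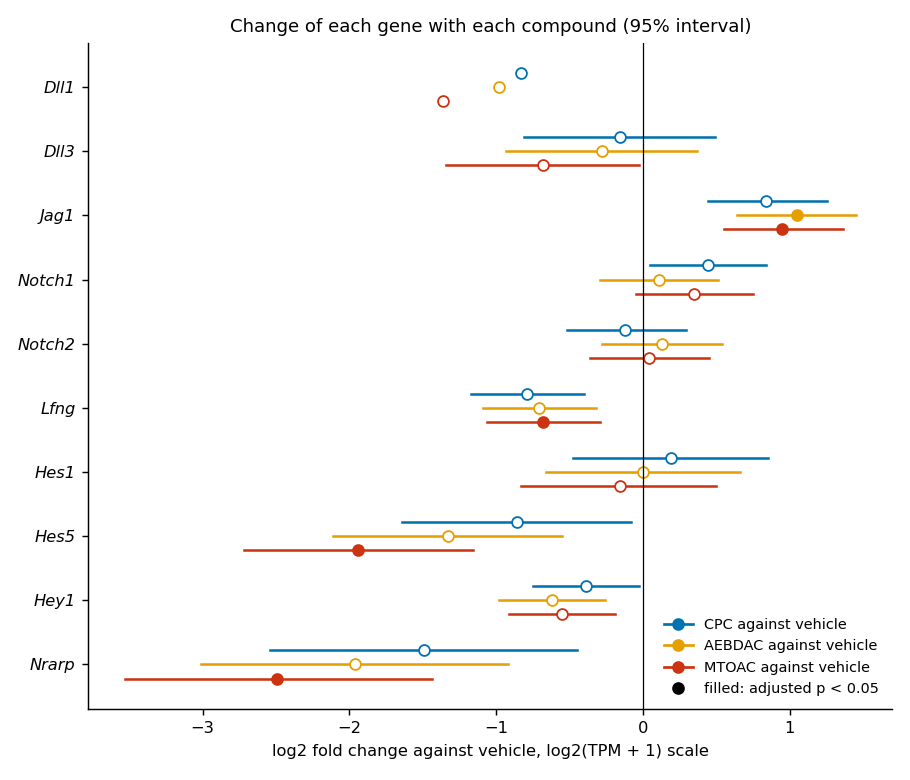
Difference from vehicle on the log2(TPM + 1) scale (horizontal axis) of each Notch gene with CPC, AEBDAC and MTOAC; bars are 95% intervals from limma, and Dll1 is shown without an interval because it chose the set. Jag1 lies to the right of 0, at 0.84 to 1.05, and Nrarp farthest to the left, at -1.49 to -2.49.

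Between compounds, whose concentrations differed, 0 of the 9 genes other than Dll1 passed in MTOAC against CPC, AEBDAC against CPC and MTOAC against AEBDAC, where 0% of the 12009 tested genes passed in limma in each. At an unadjusted p under 0.05 there were 1, 0 and 0 of the 9 genes, and 449, 211 and 307 of all genes. CPC carries a pyridinium ring, AEBDAC an ethylbenzyl ring, and MTOAC octyl chains and no aromatic ring. Dll1, described with no test, differed by -0.52 log2 between MTOAC and CPC, by -0.38 between MTOAC and AEBDAC and by -0.14 between AEBDAC and CPC. Hes5 differed by -1.08 (95% interval -1.86 to -0.30) between MTOAC and CPC, an interval below 0 that did not pass over all genes (limma adjusted p = 1), and by -0.61 (-1.39 to 0.17) between MTOAC and AEBDAC. Nrarp differed by -0.99 (-2.04 to 0.05) and -0.52 (-1.57 to 0.52) in the same comparisons. For Jag1 the interval of MTOAC against CPC ran from -0.30 to 0.51. A p that misses the threshold does not show that the compounds act alike.

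Levels of several Notch genes also went with the number of the library, a pattern seen in the values and given as a description. Library 2 was the lowest in all 4 groups for Notch2, Hes1 and Nrarp, and also for Hes6 of the wider pathway and for the OPC marker Sox10. Of all 12009 tested genes, 13.4% had library 2 lowest in all 4 groups, 2.81% library 1 and 2.7% library 3. Within same-numbered libraries Lfng, Hes5, Hey1 and Nrarp were lower than vehicle in 3 of 3 numbers with each compound, and Jag1 higher in 3 of 3. Dll1, which chose the set, was also lower in 3 of 3. Where all compound libraries lay outside the vehicle range, 3 of 3 follows from that and adds nothing to it. Of these results only that of Nrarp with CPC, whose range overlapped vehicle, could have come out otherwise. The share of all tested genes at 3 of 3 was not counted. Of all tested genes, 71.1%, 67% and 71.7% had a difference from vehicle below 0 with CPC, AEBDAC and MTOAC. For Nrarp the same-numbered differences were -0.93, -1.54 and -2.01 log2 with CPC, -1.34, -1.90 and -2.66 with AEBDAC and -2.37, -2.04 and -3.06 with MTOAC. For Hes5 number 1 gave the smallest, -0.11 with CPC, -0.24 with AEBDAC and -1.47 with MTOAC. What the numbers stand for is not said in the labels.

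**Figure D4:**
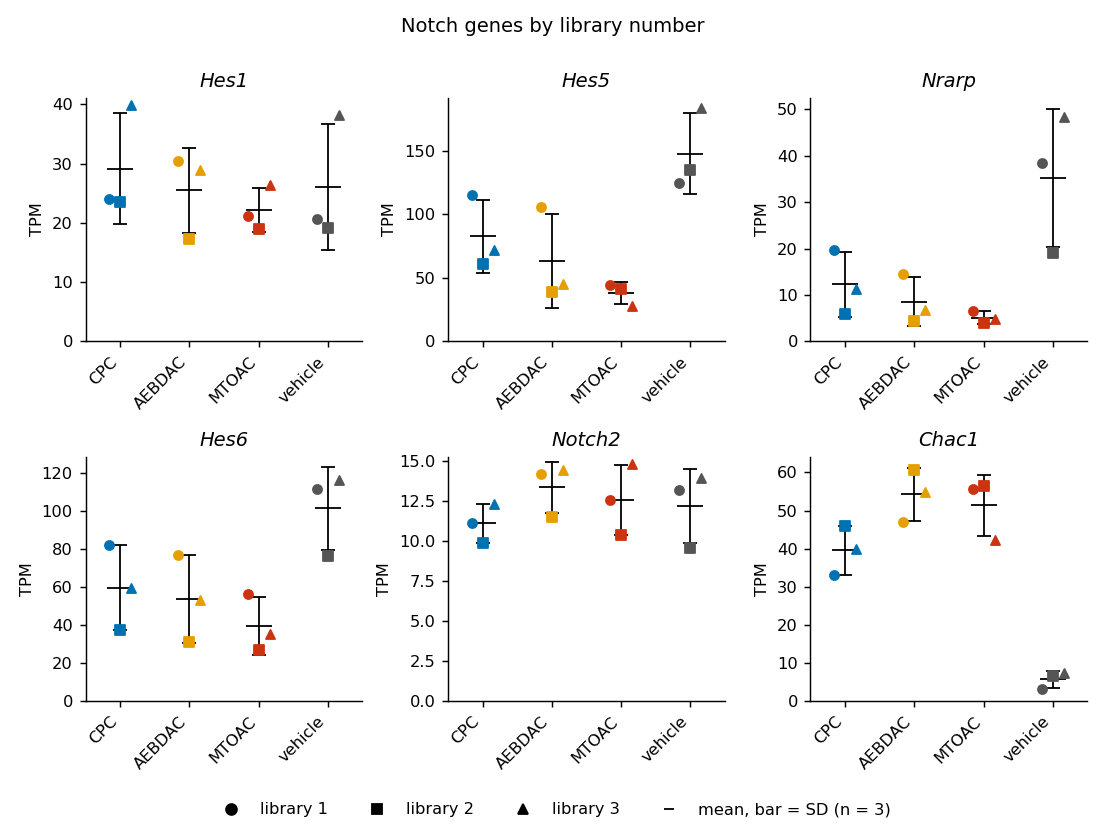
TPM (vertical axes) of Hes1, Hes5, Nrarp, Hes6, Notch2 and Chac1 with CPC, AEBDAC, MTOAC and vehicle; circles, squares and triangles are libraries 1, 2 and 3, bars the mean ± SD of n = 3. The square is the lowest symbol in all 4 groups for Hes1, Nrarp, Hes6 and Notch2, and for Nrarp it stands at 5.92, 4.39 and 3.88 TPM with the compounds, against 19.1 TPM in vehicle.

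Of 67 other genes listed for the Notch pathway, 52 passed the filter and were tested. With CPC 1 was higher and 0 were lower, with AEBDAC 1 was higher and 1 lower, and with MTOAC 1 was higher and 2 lower, leaving 51, 50 and 49 that did not pass. These are 1.92%, 3.85% and 5.77% of the 52, beside 0.0666%, 1.27% and 6.54% of all tested genes. At an unadjusted p under 0.05 there were 8, 11 and 12, or 15.4%, 21.2% and 23.1% of the 52, beside 13.6%, 19.2% and 24.4% of all tested genes, shares close to each other. Their median difference from vehicle was -0.23, -0.22 and -0.26 log2, against -0.17, -0.16 and -0.22 for all tested genes. Among those below the filter were the ligands Dll4, Jag2, Dlk2 and Dner, the repressors Hes2, Hes3, Hes7 and Heyl, and Tle4, Maml3 and Aph1b.

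The gene that was higher with all 3 compounds was Chac1. It encodes an enzyme that degrades glutathione and is known in mouse, under the name Botch, as an inhibitor of Notch1 maturation. Chac1 stood at 33.0, 45.9 and 40.0 TPM with CPC, at 47.1, 60.7 and 54.9 TPM with AEBDAC and at 55.8, 56.3 and 42.2 TPM with MTOAC, against 3.05, 6.50 and 7.42 TPM in vehicle. Every compound library was several times the highest vehicle library. Relative to vehicle it rose by 2.66, 3.11 and 3.03 log2 (SE 0.25), with limma adjusted p of 0.00425, 0.000531 and 6e-04. The CPC call was lost with only the 2 groups in the fit (adjusted p = 0.181). Chac1 is also a target of the integrated stress response.

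Both genes that were lower belong to the nuclear steps. Ccnc encodes cyclin C, which with its kinase marks the Notch intracellular part for destruction. Ccnc averaged 14.3 ± 0.53 TPM with CPC, 11.5 ± 2.35 TPM with AEBDAC and 13.4 ± 1.93 TPM with MTOAC, against 25.8 ± 7.11 TPM in vehicle (SD, n = 3). It fell by 1.08 with AEBDAC and by 0.86 with MTOAC on the log2 scale (SE 0.22), with limma adjusted p of 0.044 and 0.0429. Each call held without vehicle library 1 and was lost without any 1 of the other 5 libraries, with limma adjusted p between 0.0624 and 0.198 for AEBDAC and between 0.0577 and 0.12 for MTOAC. Over 13 alternatives each call held in 3, and it was lost among others with no filter on low values, with quantile normalization and without mitochondrial genes (0.0842, 0.1 and 0.0519 for AEBDAC, 0.0764, 0.193 and 0.0576 for MTOAC). Spen, a corepressor that RBPJ recruits when Notch is off, fell by 0.74 with MTOAC on the log2 scale, at 18.1 ± 3.67 TPM, against 31.0 ± 6.12 TPM in vehicle (limma adjusted p = 0.0405). That call was lost without vehicle library 1 or 3 (0.115 and 0.0888) and without MTOAC library 1 or 2 (0.118 and 0.114), and it held in 5 of 13 alternatives, with 0.071 with no filter, 0.0863 with quantile normalization and 0.155 with only the 2 groups in the fit. Exons of Ccnc overlap Tstd3, and those of Spen Zbtb17, on the other strand, and without strand the reads of such pairs cannot be told apart. Tstd3 averaged 8.9, 8.21 and 7.83 TPM with CPC, AEBDAC and MTOAC, against 14.3 TPM in vehicle, and Zbtb17 3.29, 1.57 and 2.45 TPM, against 1.34 TPM in vehicle. Their part in the values of Ccnc and Spen was not tested.

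**Figure D5:**
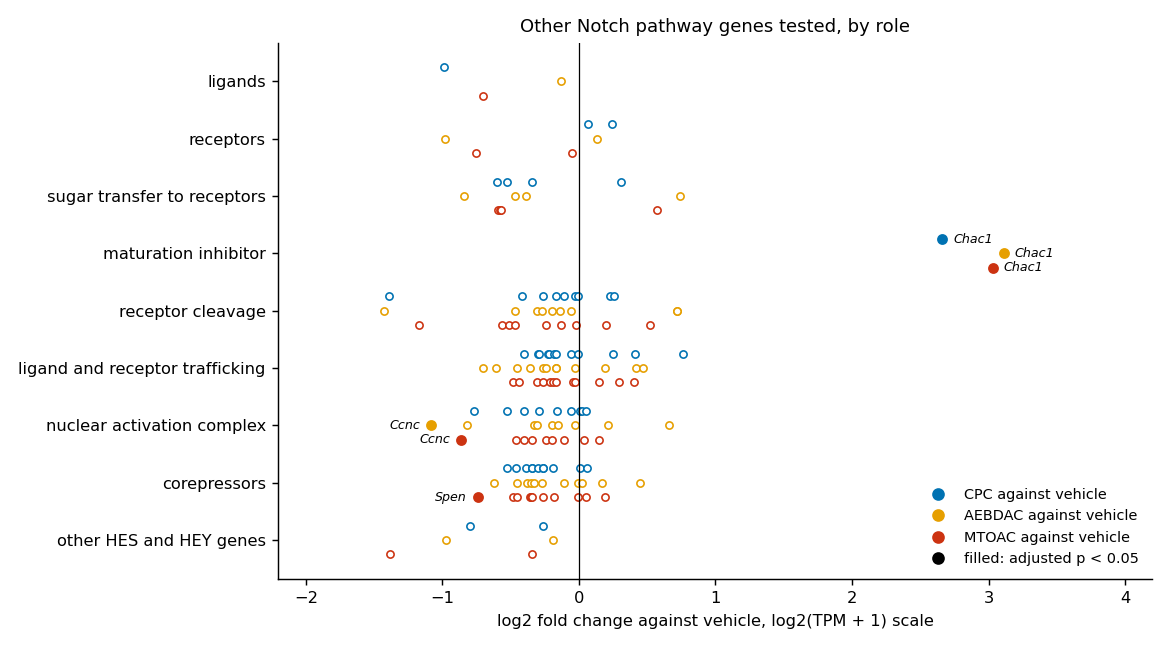
Difference from vehicle on the log2(TPM + 1) scale of other Notch pathway genes tested, in 9 roles, with CPC, AEBDAC and MTOAC; filled symbols passed at an adjusted p under 0.05. Chac1 stands apart at 2.66 to 3.11, and Ccnc and Spen are the filled symbols below 0.

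The most abundant tested genes of the roles described here did not pass, apart from Chac1. Hes6, known to counteract Hes1, averaged 59.7 ± 22.4 TPM with CPC, 53.6 ± 23.0 TPM with AEBDAC and 39.5 ± 15.2 TPM with MTOAC, against 101 ± 21.9 TPM in vehicle, and its MTOAC difference of -1.38 ± 0.37 had a limma adjusted p of 0.0516. The receptor Notch3 averaged 16.4 ± 0.89, 17.2 ± 2.28 and 15.0 ± 0.92 TPM with CPC, AEBDAC and MTOAC, against 15.6 ± 1.56 TPM in vehicle, and Notch4 lay under 2 TPM in every group mean. Among genes of receptor sugar transfer, Rfng, a second fringe enzyme, averaged 12.9 ± 1.04, 14.6 ± 3.72 and 12.4 ± 0.53 TPM, against 19.0 ± 0.70 TPM in vehicle, with an MTOAC difference of -0.58 ± 0.17 (limma adjusted p = 0.06). Poglut1, which adds glucose to the receptor, differed by -0.34, -0.47 and -0.57. The cleavage subunits Psenen and Aph1a differed by -0.26 to -0.02 log2, Snw1 and Maml2 of the activating complex by -0.34 to -0.03, the ubiquitin ligase Dtx4 by -0.21 to -0.17, and the corepressor Ctbp1 by 0.05 to 0.17. The corepressor Ncor1 differed by -0.62 with AEBDAC (limma adjusted p = 0.122). Hey2, Dlk1 and the ubiquitin ligase Nedd4 varied between libraries of a group by a large part of their level or stood near the filter. Rbpj, the DNA-binding protein of the pathway, named here although it is outside these rules, averaged 21.5 ± 1.83, 22.7 ± 2.91 and 21.8 ± 4.73 TPM, against 28.9 ± 5.11 TPM in vehicle, with limma adjusted p of 0.357, 0.344 and 0.201.

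Other genes followed the profile of Dll1 or Nrarp over the 12 libraries. Likeness was the root mean square difference on log2(TPM + 1), after subtracting the vehicle mean of each gene, over 7911 genes that averaged 5 TPM or more. Nearest to Dll1 were Ptrh2, Sfpq, Nanp, Irgq and Mycl, at 0.17 to 0.21 log2. Mycl, a MYC family transcription factor, averaged 19.5 ± 0.861, 18.3 ± 1.49 and 15.3 ± 2.35 TPM with CPC, AEBDAC and MTOAC, against 34.4 ± 5.35 TPM in vehicle (SD, n = 3). Nearest to Nrarp were Btg2, Gpr17, Snn, Rfx5 and Ppp1r10, at 0.42 to 0.63 log2, a looser match than for Dll1. Btg2, an antiproliferative gene, averaged 63.2 ± 27.7, 42.7 ± 22.3 and 32.1 ± 13.4 TPM, against 133 ± 17.5 TPM in vehicle. Gpr17, a receptor of committed progenitors and one of the OPC markers above, averaged 33.0 ± 9.78, 23.5 ± 9.76 and 13.6 ± 2.79 TPM, against 59.0 ± 7.19 TPM in vehicle.

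The exons of Dll1, Notch1, Hes5 and Nrarp overlap noncoding genes on the other strand, A930024N18Rik, 0610009E02Rik with Gm13568, Gm20421 and Gm38287 in that order, and Notch2 overlaps Gm42820 on its own strand. The library kit is not described as marking strand, so reads of these pairs cannot be told apart.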

How the data were processed

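For each library the authors deposited a table of TPM by gene symbol, 35385 in all. The build was mm10 and the tool Salmon, per the submitters' processing notes; neither its version nor the annotation used is given in the sources used here. TPM are relative to all RNA of a library and keep no depth, so the sequencing depth behind a value is unknown. Gene models came from GENCODE M21, which matched 34858 symbols, and promoters from RefSeq.

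All 12 libraries entered 1 limma fit (3.58.1, R 4.3.3) with 4 group means, trend and robust moderation, on log2(TPM + 1), where changes of weakly expressed genes come out too small. Tests covered the 12009 genes that reached 1 TPM in 3 or more libraries, two-sided, with Benjamini-Hochberg adjustment over all of them within each of 6 comparisons and calls at an adjusted p under 0.05. The method was tested on simulated data with independent noise in each library. That setting holds neither deviations shared by library number nor a library that stands apart, so it does not cover either. With 3 libraries against 3, an exact permutation p can be no smaller than 0.1, so none was used.

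The members and lists were chosen with earlier results of these data known. Named were all 10 members, pathway genes that passed, the 2 most abundant tested pathway genes of each role, and the 5 genes most like Dll1 and Nrarp; some items these rules name are not reported here. Library numbers come from the titles. The main fit had no term for them, and they entered only the alternatives with a block. They were judged to pair libraries where, across genes, libraries of 1 number deviated together from the means of their groups (correlation over 0.1 for all 3 numbers). CPC against vehicle met this (0.34, 0.31 and 0.23), as did AEBDAC against CPC (0.28, 0.42 and 0.23) and MTOAC against AEBDAC (0.33, 0.36 and 0.30), and the other 3 comparisons did not. Alternatives were another pseudocount, no filter, quantile normalization, leaving out mitochondrial genes, only the 2 groups compared, the library number as a block, and each library left out.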

Additional observations from a re-analysis of the deposited data

How the results depend on the processing

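Counts of the 10 Notch genes past the threshold leave out Dll1 against vehicle. With CPC the count of 0 became 3 with the replicate block (Jag1 higher, Lfng and Nrarp lower), where the numbers pair the libraries, and 1 with block and quantile normalization together, and it was 0 without any 1 library. With AEBDAC the count of 1 became 0 with no filter on low values and with only the 2 groups in the fit. It was 5 with the replicate block (Jag1 higher, Lfng, Hes5, Hey1 and Nrarp lower) and 2 with block and quantile normalization. When a library was left out it lay between 0 and 2: 0 without vehicle library 1, 2 or 3 or AEBDAC library 2 or 3, and 2 without AEBDAC library 1. With MTOAC the count of 4 became 1 with only the 2 groups in the fit and lay between 1 and 3 when a library was left out, with 1 without vehicle library 1 and 2 without vehicle library 3 or MTOAC library 2; with the replicate block it was 6, with Dll3 and Hey1 added as lower, and with block and quantile normalization 4, with Notch1 among them. Between compounds it was 0 in each alternative run. In AEBDAC and MTOAC against vehicle the numbers did not meet the rule for pairing, with correlations of 0.08, 0.25 and 0.03 and of -0.03, 0.35 and -0.19. There the block moved the count of all called genes to 1072 and 1904. The cause of these differences was not tested.

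All-gene counts also moved. From 8 with CPC they became 16 with quantile normalization, 0 with only the 2 groups, 184 with the block, 115 with both, and 1 to 5 without 1 library. From 153 with AEBDAC they became 38 with no filter, 3 with only the 2 groups, 907 with block and quantile normalization, and 9 to 104 without 1 library. From 785 with MTOAC they became 404 with no filter, 430 with quantile normalization, 17 with only the 2 groups, 1194 with block and quantile normalization, and 149 to 573 without 1 library. Between compounds 0 became 1 with no filter in MTOAC and in AEBDAC against CPC, and 1 with only the 2 groups in AEBDAC against CPC and MTOAC against AEBDAC. Quantile normalization split the calls 12 higher and 4 lower, 96 and 86, and 213 and 217 with CPC, AEBDAC and MTOAC, against 4 and 4, 47 and 106, and 95 and 690 as reported, and removed the shift of the median gene.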
